A study of Rattus norvegicus with 3 samples.

Results

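The capsular area of the rat thymus was compared with the cortex in 1 tissue section, over the square bins of 10 µm to which the authors gave a region and at least 1 cell type label. Of 592087 labelled bins in the section, 532553 were used, 123373 of them in the capsular area and 409180 in the cortex. All tissue came from 8-week-old Lewis rats, an inbred strain, with no treatment or genetic change named in the labels. The middle piece of a thymus, with its right and left lobes set back to back, was cut at 10 µm and placed on a Stereo-seq chip, which captures RNA at known positions. Each bin was labelled by RCTD, a method that breaks the RNA of a small region down into up to 3 reference cell types with a weight for each. The reference was built by the authors from 1 rat library of thymocytes, 1 rat library of CD45-negative stromal cells and published mouse data. Each area is 1 observation, so no test was run, and the 95% intervals given cover counting error only. Neighbouring bins share tissue and RNA, and the spread between animals is unknown. A bin can hold parts of several cells, so a share of bins is not a share of cells, and fewer cells of a type cannot be told apart from less RNA per cell.

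The thymus makes T cells from precursors that arrive by the blood. The earliest, double-negative (DN) thymocytes carry neither CD4 nor CD8 and are known to move outward to the zone under the capsule, where they proliferate and become double-positive (DP) cells carrying both. Cells that pass selection become single-positive (SP) and move inward to the medulla, while cortical and medullary epithelial cells (cTEC and mTEC) and mesenchymal cells of the capsule and its septa form the frame in which this happens.

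The capsular area was built around 15817 bins that the authors marked as capsule, and takes in every bin up to 50 µm from a marked one. All marked bins belonged to 1 of the 29 deposited expression clusters, cluster 13, which held 25272 bins of the section, 7780 of them in the cortex. The marked bins therefore share their source with the labels: they were picked among bins of 1 expression pattern, and what they contain is a description of that pick. For this reason the class results below are given for the whole capsular area and for its 107560 labelled bins that were not marked, and marked bins are also set against bins of cluster 13 in the cortex for the stromal labels. The rule by which the marked bins were picked within the cluster is not given in the sources used here. They formed 1966 connected groups, of which 962 were single bins and the largest held 558.

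Marked bins followed the outer margin of the section and branching lines inside it. Only 15.6% of them lay within 50 µm of ground without tissue, and their median distance to such ground was 615 µm. Of all capsular bins, 54.3% lay over 500 µm from it, so the area is for the most part not the outer margin of the section. It covered 12.6 mm² and the cortex 41.4 mm². Bins without a label were 1.78% of the capsular area and 1.12% of the cortex, and none of them had more than 99 UMIs (unique molecular identifiers, each counting 1 captured RNA molecule).

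**Figure D1:**
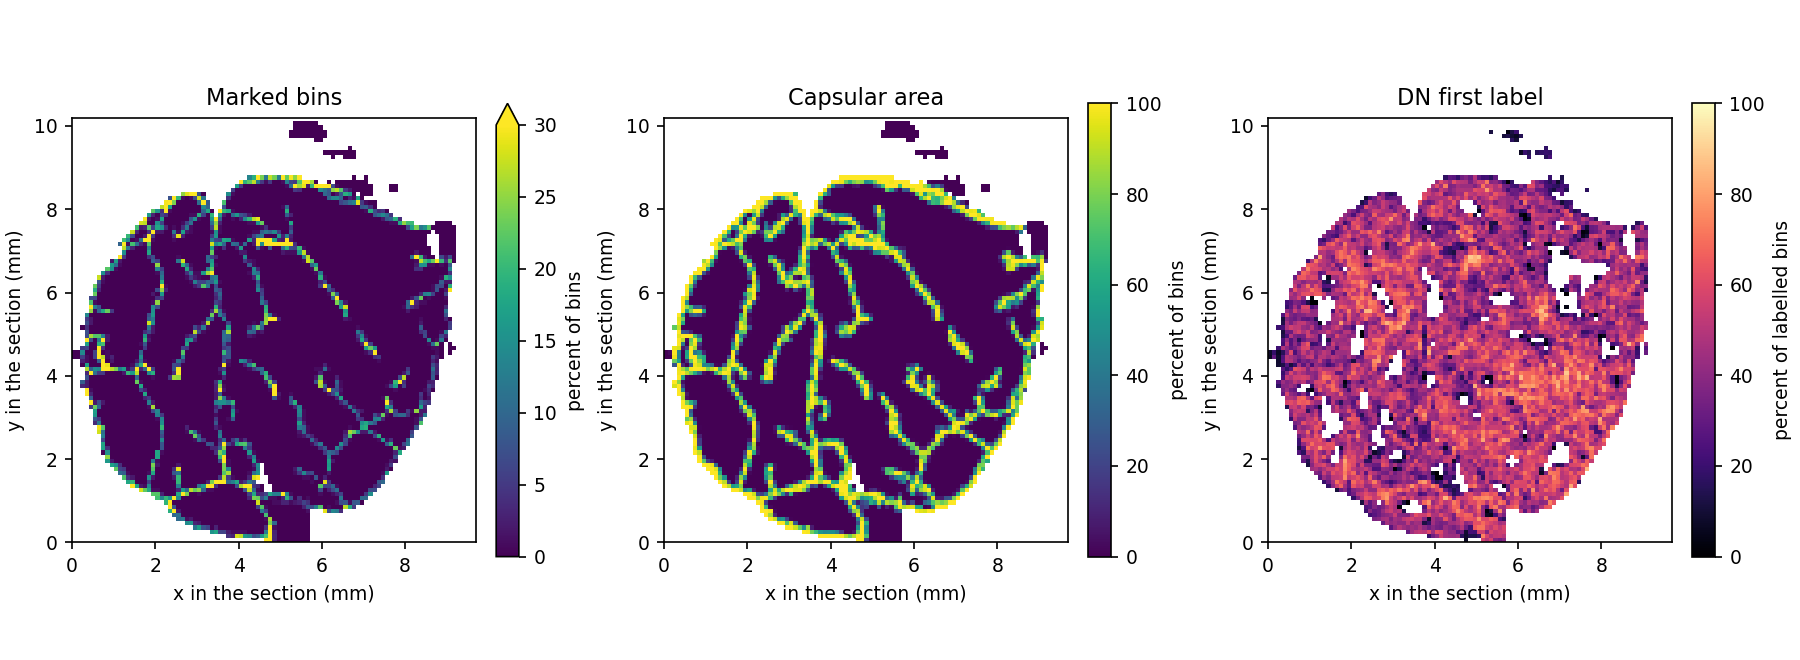
Maps of the section in squares 0.1 mm wide, with both axes in mm. Colour gives the percent of bins that were marked (left, colours end at 30), the percent of bins in the capsular area (middle) and the percent of labelled capsular and cortex bins with the DN first label (right). Marked bins trace the margin and inner lines, and the DN label is spread over the whole of both areas.

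Depth differed little between the areas as a whole. Labelled bins had a median of 314 UMIs in the capsular area and 306 in the cortex, a ratio of 1.026. The median was 347 UMIs in marked bins and 309 in the other capsular bins. By distance, it was 358 UMIs up to 10 µm from a marked bin, 258 between 50 and 75 µm and 336 beyond 500 µm, so the cortex next to the capsular area was the shallowest zone.

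What the label names stand for was looked at in the suspended cells of the authors' reference libraries, since the section's tables hold no gene counts. These levels describe the authors' reference types, and cannot check the labels given to bins of the section. All 6 DP markers were highest in DP cells, among them Rag1, which cuts the T cell receptor genes, at 1952 CPM (CPM stands for a type's counts scaled to a fixed total of UMIs) against 367 in DP-P cells, the next type. All 3 proliferation genes were highest in DP-P, the proliferating DP cells, with Mki67 at 1114 CPM. Of the 7 DN markers only Ptcra, the pre-T cell receptor alpha chain, was highest in DN cells, at 271.7 CPM against 264.9 in DP-P. Among 21 types, DN ranked 2 for Kit and Hes1 and 3 for Notch1 and Dtx1. All of these were highest in cells named gdT, which is not a label of the section. DN ranked 16 for Il7r and 20 for Il2ra, an interleukin 2 receptor chain, at 3.51 CPM against 293.5 in Treg. Only Ptcra thus ranked DN first in its library, and its counting intervals overlapped, at 262.0 to 281.7 CPM in DN and 257.2 to 272.7 in DP-P. The label is used below as the authors' name. DN cells were 390 of the 8546 annotated cells of the thymocyte library and DP cells 5202, the reverse of their order in the section. DN cells held a mean of 27775 UMIs each and DP cells 3636, and the part of that difference in the section's labels was not tested. All 4 genes Pi16, Dpp4, Sema3c and Cd55 were highest in capFb, with Pi16 at 4894 CPM, and all 4 mural genes in vSMC/PC, with Myh11 at 998 CPM. Of the 5 cortical epithelial genes, Psmb11, Prss16 and Ccl25 were highest in cTEC, with Ccl25 at 535 CPM. Other lists cover several types but were each set against 1: 1 of 4 medullary epithelial genes was highest in mTEC1, 2 of 6 fibroblast genes in capFb and 0 of 4 endothelial genes in aEC. The endothelial genes were highest in vEC (Pecam1, Selp) or capEC (Cdh5, Kdr). Dcn, Lum and Pdgfra were highest in TMC2, and Pdgfrb in TMC4. Of the medullary genes, Aire was highest in mTEC2, but Krt14 in cTEC and Ccl21 in TMC4. The section has no myeloid or B cell label, so RNA of such cells would have to appear under other labels.

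Over the whole area, 10 of 30 first labels with at least 50 bins were at least 1.5-fold higher in the capsular area than in the cortex (33.3%), and 10 were at least 1.5-fold lower (33.3%), each with an interval that excluded 1. The 10 higher labels were all stromal, and the 10 lower labels were all thymocyte labels past the DP stage. Without the marked bins 3 of 28 labels were higher (10.7%) and 13 were lower (46.4%). The 10 thymocyte labels that were lower remained so, and mTEC1, mTEC2 and mTEC-prol joined them, while 3 of the 10 stromal labels, early Pr, aEC and capEC, were still past the fold. With cluster 13 left out of both areas, 4 of 27 labels were higher (14.8%) and 13 were lower (48.1%). The median ratio of the 17 thymocyte labels was 0.629 for the whole area and 0.586 without marked bins. That of the stromal labels was 3.81 over 13 labels with the marked bins, and 1.04 over the 11 labels left without them.

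**Figure D2:**
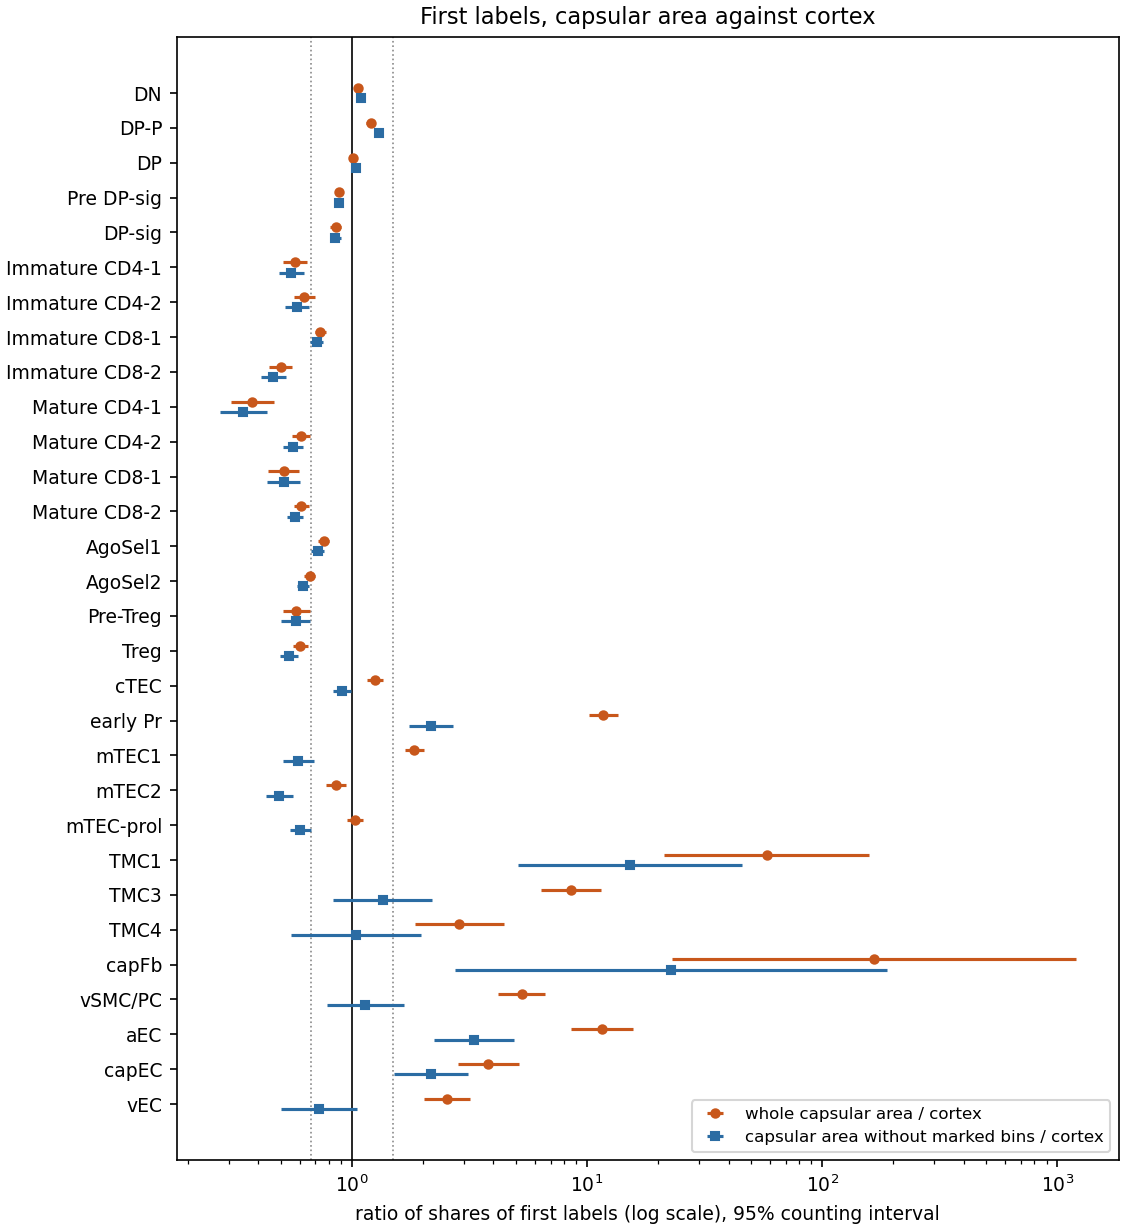
Share of each first label in the capsular area divided by its share in the cortex, on a log axis with 95% counting intervals, for the whole area (circles) and without marked bins (squares). Dotted lines mark 1.5-fold in either direction. SP, agonist-selected and regulatory labels lie left of 1 in both sets, whereas mTEC1, at 1.84 and 0.592, changes side.

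DN was the largest label in both areas. It was the first label of 62208 capsular bins, 50.4% (50.1 to 50.7), and of 194664 cortex bins, 47.6% (47.4 to 47.7), a ratio of 1.060 (1.053 to 1.067). Without the marked bins the capsular share was 52.0% and the ratio 1.094 (1.087 to 1.101), and with cluster 13 left out of both areas the ratio was 1.095. In marked bins the DN share was 39.4% (38.7 to 40.2), below that of the cortex. In these bins the excess was therefore small, and lay beside the marked bins. In cell bins, the authors' second table of the section, the DN share was 51.3% in marked ones and 41.9% in the cortex, so it was higher there too. With all bins within 50 µm of the other area left out, which removes much of that flank, the ratio for the whole area was 0.874.

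The DN share changed over short distances. It was 48.5% up to 10 µm from a marked bin, 53.9% between 10 and 20 µm, 54.9% between 20 and 30 µm, 52.8% between 30 and 40 µm and 50.1% between 40 and 50 µm. Across the border of the area it was 48.2% between 50 and 75 µm, and between 75 and 500 µm it held at 47.4% to 48.1%, before 43.9% beyond 500 µm. The same course without bins of cluster 13 peaked at 55.0%. With 10 classes of depth weighted alike the peak was 56.1% and lay between 30 and 40 µm, so a maximum inside the capsular area was present at equal depth, at a slightly greater distance. In squares of 1 mm the share between 10 and 40 µm exceeded that between 50 and 100 µm in 56 of 67 squares. Cell bins gave no dip in the marked bins, and their share was 51.7% between 10 and 20 µm, 47.4% between 40 and 50 µm and 37.0% beyond 500 µm.

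**Figure D3:**
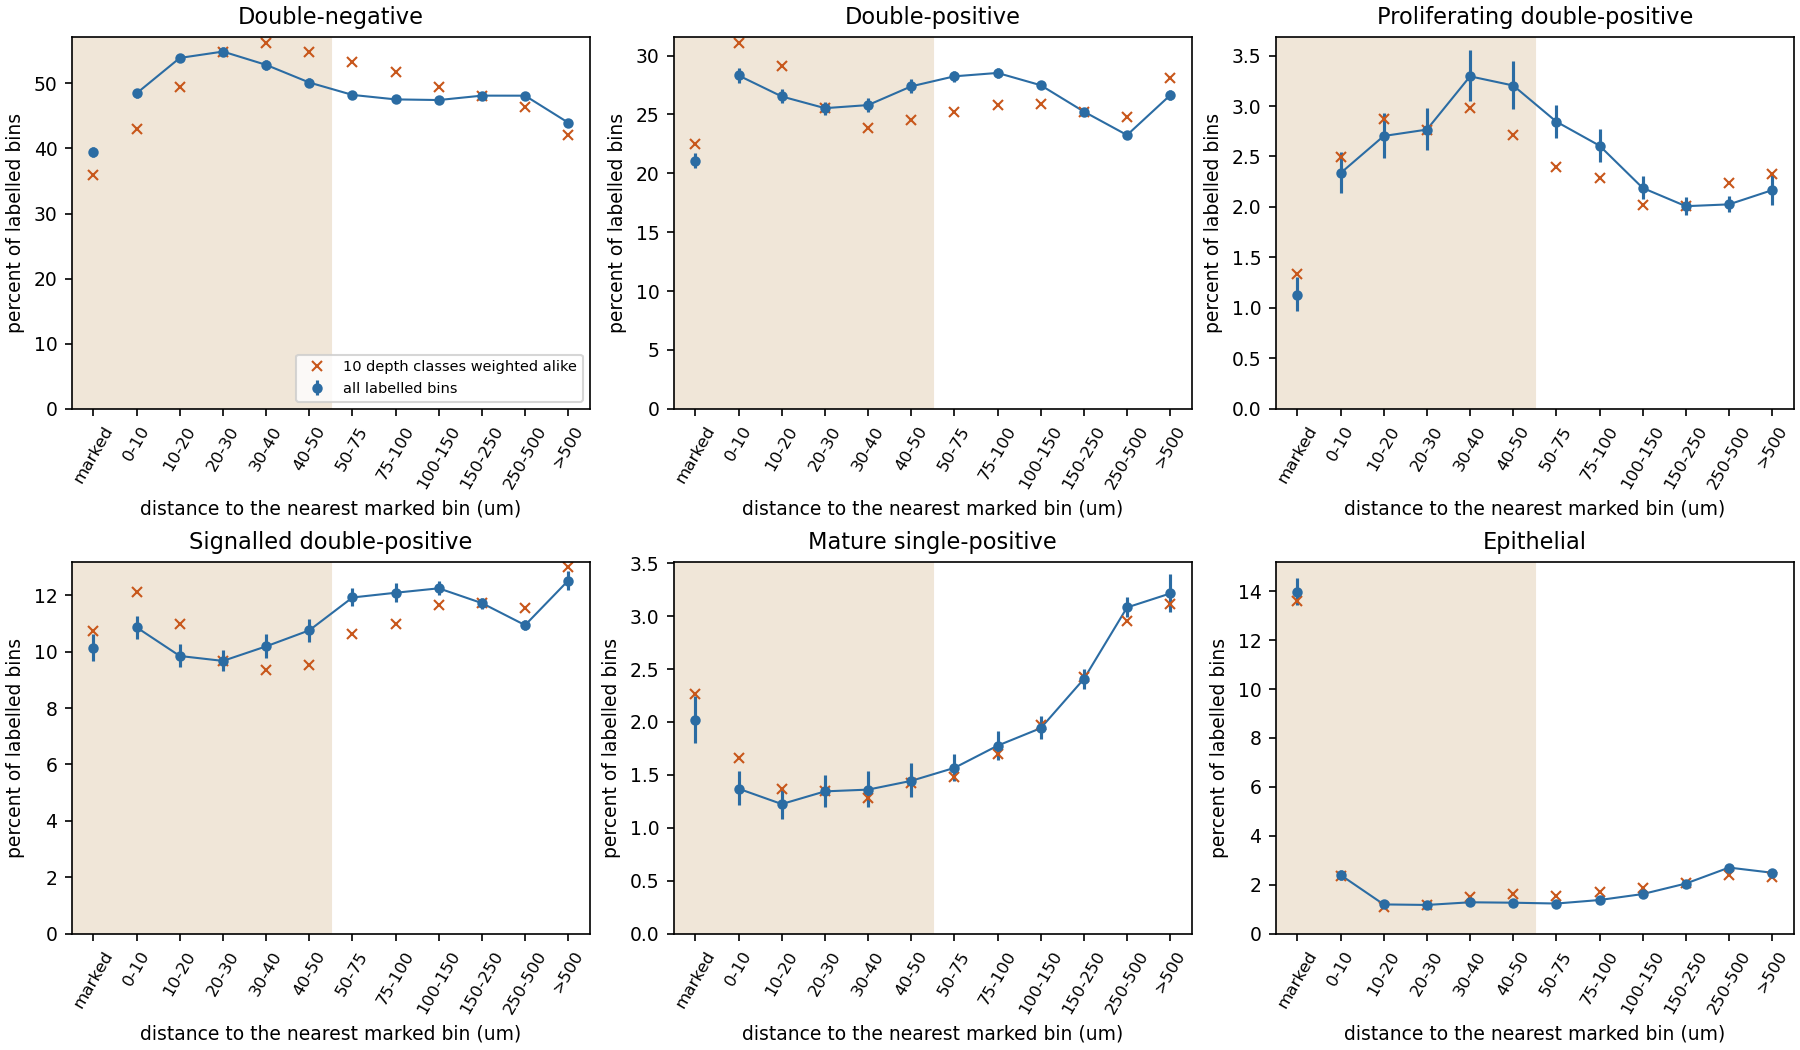
Percent of labelled bins with each class of first label by distance to the nearest marked bin, in µm. Circles are all bins with 95% counting intervals, crosses weight 10 depth classes alike, and the shaded part is the capsular area. DN peaks at 54.9% and DP-P at 3.29% inside the area, mature SP is lowest at 10 to 20 µm, and epithelial labels stand at 14.0% in marked bins and below 3% in every other band.

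The DN label was also tied to depth. In the shallowest of the 10 depth classes, with 100 to 173 UMIs, it was given to 24.5% of unmarked capsular bins and to 25.0% of cortex bins. In the deepest, with at least 488 UMIs, it was given to 78.9% (78.2 to 79.7) of unmarked capsular bins and to 57.9% (57.4 to 58.4) of cortex bins. The unmarked capsular share was higher in 7 of the 10 classes, the deepest 7, and the ratio with all classes weighted alike was 1.089. In those deepest cortex bins other labels took the place of DN, epithelial labels 9.54% against 3.10% of unmarked capsular bins, and agonist-selected and regulatory labels 11.2% against 2.15%.

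**Figure D4:**
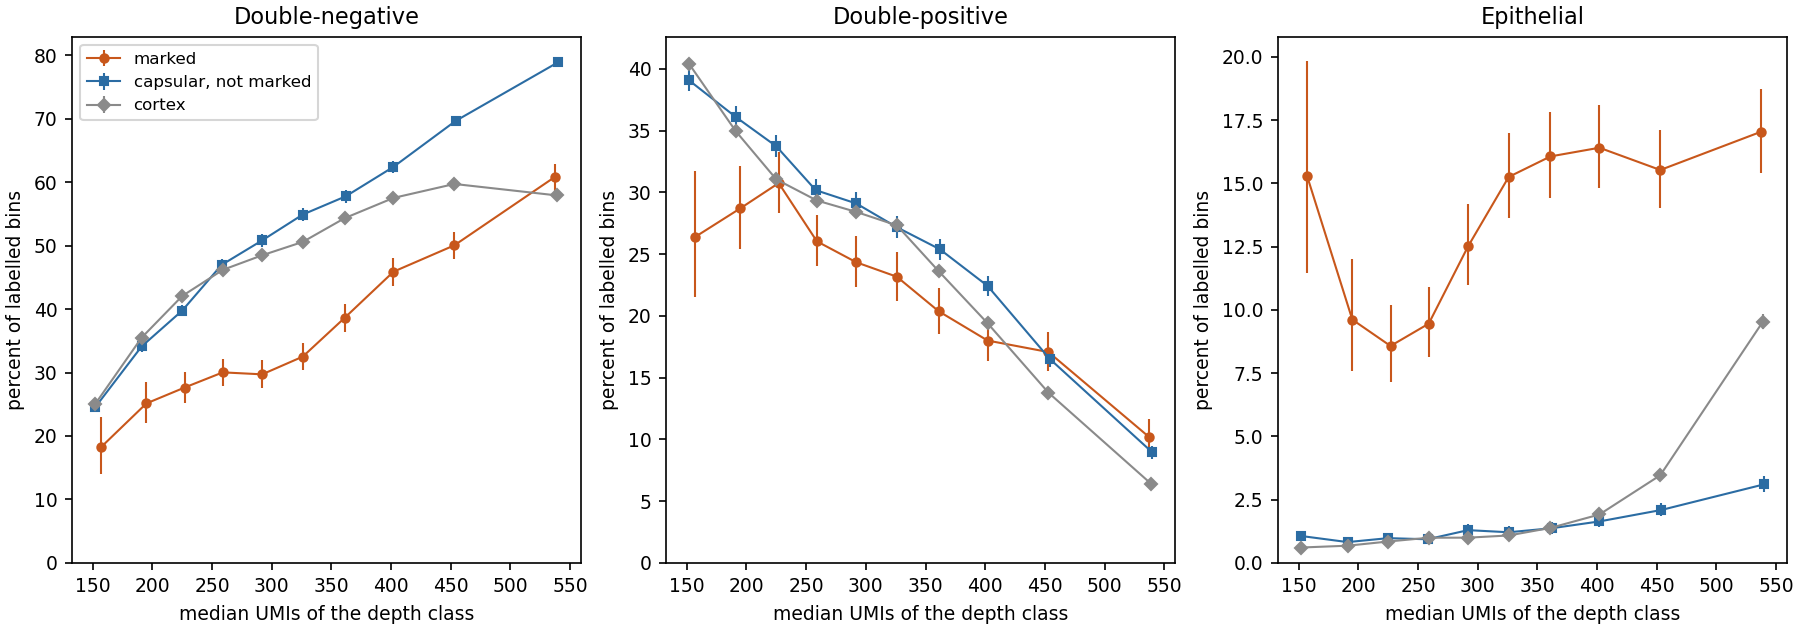
Percent of labelled bins with DN, DP and epithelial first labels against the median UMIs of 10 depth classes, for marked bins (circles), other capsular bins (squares) and cortex (diamonds), with 95% counting intervals. DN separates the unmarked capsular bins from the cortex in the deepest class, at 78.9% and 57.9%, while epithelial labels there are at 3.10% and 9.54%.

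The DP label, of the stage known to be the most abundant in the cortex, did not set the areas apart. The label was given to 26.0% of capsular bins and 25.7% of cortex bins, a ratio of 1.012 (1.001 to 1.023), and to 21.1% of marked bins. The ratio was 1.040 without marked bins but 0.955 (0.943 to 0.968) when these were set against cortex no farther than 150 µm from a marked bin. It was 1.034 in the left part of the section and 0.964 in the right. The direction of so small a difference depended on the bins compared.

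Proliferating DP bins were more frequent near the marked bins. DP-P was the first label of 2.63% (2.54 to 2.72) of capsular and 2.19% (2.15 to 2.24) of cortex bins, a ratio of 1.200 (1.153 to 1.248), and of 1.300 (1.248 to 1.354) without marked bins. It stayed under the 1.5-fold used for calls. The unmarked share was higher than the cortex share in all 10 depth classes. The DP-P share was 1.13% in marked bins, 2.34% up to 10 µm away and 3.29% between 30 and 40 µm, a peak 10 µm farther out than that of DN. Across the border of the area it declined gradually. It was 2.84% between 50 and 75 µm, 2.61% between 75 and 100 µm and 2.01% between 150 and 250 µm. With depth classes weighted alike both peaked between 30 and 40 µm, DP-P at 2.98% against 2.88% between 10 and 20 µm. In cell bins DP-P was highest up to 10 µm from a marked one, at 5.07%, and was 4.96% between 10 and 20 µm, so the place of its peak relative to that of DN depended on the bins used. In squares of 1 mm, the share between 10 and 50 µm exceeded that between 100 and 150 µm in 51 of 65.

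The labels Pre DP-sig and DP-sig were scarcer in the capsular area. Together they were given to 10.2% of capsular and 11.7% of cortex bins, a ratio of 0.877 (0.861 to 0.894), or 0.878 without marked bins. Pre DP-sig alone, the third largest label of each area, had 8.83% and 10.0%.

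Every SP label had a lower share in the capsular area. Immature SP labels had 1.98% of capsular and 3.05% of cortex bins (ratio 0.649, 0.621 to 0.677), and mature SP labels 1.44% and 2.48% (0.578, 0.550 to 0.608). Without marked bins the ratios were 0.619 (0.591 to 0.649) and 0.544 (0.515 to 0.574). By depth, the immature SP share of the whole area was higher than in the cortex in 0 depth classes, but the mature SP share in 3. In the shallowest class mature SP labels were at 2.85% against 2.65% (1.07, 0.954 to 1.21). In the deepest they were at 0.810% against 5.43% (0.149, 0.123 to 0.180). The lowest ratio of all labels was that of Mature CD4-1, with 95 of the capsular and 836 of the cortex bins (0.377, 0.305 to 0.466), or 0.346 without marked bins. Mature CD4-2, Mature CD8-1 and Mature CD8-2 were at 0.608, 0.513 and 0.610. Among the immature labels, Immature CD8-2 was at 0.498, Immature CD4-1 at 0.575 and Immature CD4-2 at 0.629. Immature CD8-1, at 0.735, did not pass the fold. In suspension, 3 of the 4 genes of the mature SP list were highest in Mature CD4-1 cells. Among them were Klf2 at 481 CPM and S1pr1 at 219 CPM, genes of cells ready to leave the thymus.

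Agonist-selected and regulatory labels had 3.44% of capsular and 5.12% of cortex bins (ratio 0.672, 0.651 to 0.695), and the ratio was 0.629 (0.607 to 0.651) without marked bins. The direction depended on depth. In the shallowest depth class the capsular share was higher, at 6.23% against 5.27% (1.18, 1.09 to 1.28). In the deepest it was lower, at 2.16% against 11.2% (0.193, 0.172 to 0.217). The capsular share was higher in 5 depth classes, and in 2 without marked bins. Over all depths of the whole area, Pre-Treg was at 0.581, Treg at 0.603 and AgoSel2 at 0.661, while AgoSel1, at 0.758, did not pass the fold. The cortex as deposited reaches up to 1460 µm from a marked bin and borders the medulla, where SP cells are known to gather. Its mature SP share was 1.57% at 50 to 75 µm and 3.21% beyond 500 µm. Against cortex up to 150 µm away only, unmarked capsular bins had ratios of 0.753 (0.706 to 0.803) for mature SP, 0.752 for immature SP and 0.819 for agonist-selected and regulatory labels. The difference was thus smaller over that short range but kept its direction, without weighting for depth. With depth classes weighted alike, these 3 shares were 1.66%, 2.40% and 4.33% up to 10 µm from a marked bin. They were 1.48%, 2.05% and 3.40% between 50 and 75 µm, and 1.97%, 2.62% and 4.37% between 100 and 150 µm. Right beside the marked bins the direction at equal depth therefore depended on the cortex band.

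Epithelial first labels were higher in the capsular area by 1.469-fold (1.415 to 1.526), at 3.07% against 2.09% of bins. This excess came from the marked bins, which held 2210 of the 3793 epithelial bins of the area (58.3%) and were 14.0% epithelial. Without them the share was 1.47%, lower than in the cortex by a ratio of 0.703 (0.667 to 0.742). Close to the capsular area, the cortex up to 150 µm had 1.45%, and the ratio was 1.014 (0.95 to 1.083). With depth classes weighted alike the ratio without marked bins was 0.674 against the whole cortex, but the unmarked share was higher in 5 of the 10 classes. Apart from the marked bins, epithelial labels were thus lower than in the cortex as a whole but not than in the nearby cortex. No single direction holds for all ranges of cortex and depth.

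The epithelial labels differed among themselves. The label early Pr, whose abbreviation the authors' labels do not spell out, had 831 capsular and 235 cortex bins, a ratio of 11.7 (10.1 to 13.6), and 83.9% of its capsular bins were marked. It was the 1 epithelial label that was still higher without them, at 2.17 (1.76 to 2.68), and 3.05 with cluster 13 left out of both areas. A first label need not carry the largest weight: in capsular bins of several types with an epithelial first label, the median weight was 0.423 for the first and 0.562 for the second label. The cortical label cTEC had 0.735% of capsular and 0.586% of cortex bins (1.254), and 0.907 (0.829 to 0.994) without marked bins. The medullary label mTEC1 turned from 1.84 to 0.592 without them, and mTEC2 was at 0.856 and 0.492. For mTEC-prol the ratios were 1.031 and 0.604. Krt5, a keratin of basal epithelium, was highest in mTEC1 in suspension (3340 CPM) and next in cTEC (3119 CPM), and it was the 1 gene of the 4 medullary ones that was highest there.

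Mesenchymal first labels were rare, and most of the capsular ones lay in marked bins. They had 360 capsular bins, 0.292% (0.262 to 0.323), and 114 cortex bins, 0.0279% (0.0230 to 0.0335), a ratio of 10.5 (8.49 to 12.9), and 301 of the 360 were marked. Without marked bins 59 remained, 0.0549%, and the ratio was 1.97 (1.44 to 2.70). Between 1 mm squares the unmarked share was higher in 24, lower in 24 and equal in 18, and in cell bins the ratio without marked ones was 0.714 (0.529 to 0.963). Among those cell bins TMC4 was lower, with 12 capsular and 204 cortex bins (0.248, 0.138 to 0.443). TMC1, with 3 and 2 bins, and TMC2, with 5 and 6, were higher, at 6.32 (1.06 to 37.8) and 3.51 (1.07 to 11.5). TMC3 was at 1.32 (0.849 to 2.05), and capFb had 4 and 0 bins. An excess of the mesenchymal class outside the marked bins was therefore not stable, and its single labels went opposite ways in cell bins.

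Among bins of cluster 13 alone, the marked bins still differed from those in the cortex. The label capFb was first in 44 of 15813 marked bins and in 0 of 7780 cortex bins of the cluster, where a count of 0 allows up to 0.0386% when the limit is set at 3 counts and up to 0.0474% by the exact interval. TMC1 was first in 54 and in 1 bin, TMC2 in 39 and 3, TMC3 in 138 and 41, and TMC4 in 26 and 4. All mesenchymal labels together were at 1.90% and 0.630%, a ratio of 3.02 (2.24 to 4.08). The mural label vSMC/PC, with 0.955% and 0.874%, and the endothelial labels, with 1.82% and 1.67%, had ratios of 1.09 (0.822 to 1.45) and 1.09 (0.888 to 1.34), so their intervals held 1. At equal depth these ratios were 1.84 and 1.32, without an interval, and the marked share was higher in 7 and 8 of the 10 depth classes. The shallowest class, weighted like the others, had 0% mural labels on the cortex side against 1.63%. In the deepest class the marked share was lower, at 0.638% against 0.904% for mural and 0.785% against 2.08% for endothelial labels. The endothelial labels went opposite ways, aEC at 2.17 (1.48 to 3.18), capEC at 0.701 (0.449 to 1.09) and vEC at 0.757 (0.555 to 1.03). Counted in any place of the 3 labels, endothelial labels were in 9.73% of marked bins and 25.8% of cortex bins of the cluster (0.377, 0.355 to 0.400), and vSMC/PC in 3.81% and 6.63% (0.575, 0.513 to 0.645). Epithelial labels were at 14.0% and 8.50%, a ratio of 1.645, led by early Pr at 2.72 (2.26 to 3.28) and cTEC at 1.96 (1.55 to 2.49). The cluster's cortex bins were deeper, with a median of 418 UMIs against 347. At equal depth the ratios were 4.08 for mesenchymal and 2.25 for epithelial labels, again without an interval. The marked share of both was higher in all 10 classes. In the shallowest class the cortex side had 0% mesenchymal and 2.38% epithelial labels, against 1.95% and 15.3% of marked bins. In the deepest it had 0.633% and 13.43%, against 1.13% and 17.03%. How far the shallowest class raised these ratios was not tested. Among the epithelial labels mTEC1 was at 1.28 (1.09 to 1.5) and mTEC2 at 1.36 (1.08 to 1.72) without that weighting.

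The column of merged mesenchymal labels, in which each label was a confident first or second label of its bin, gave larger numbers. Over the whole area 5 of its 6 labels were higher than in the cortex (83.3%) and 0 were lower (0%), at a ratio of 5.73 (5.22 to 6.30) for any merged label, with 1174 capsular and 679 cortex bins. Without marked bins, 3 of 5 labels were higher (60%) and 0 were lower (0%), and the ratio was 1.68 (1.47 to 1.92). These were capFb with 59 capsular and 38 cortex bins (5.91, 3.93 to 8.88), TMC1 with 75 and 46 (6.20, 4.30 to 8.95) and TMC2 with 56 and 77 (2.77, 1.96 to 3.90). Within cluster 13 capFb was at 1.80% of marked bins and 0.167% of cortex bins (10.7, 6.17 to 18.7), and TMC1 at 1.59% and 0.334% (4.77, 3.19 to 7.13). TMC4 went the other way, with 0.323% and 0.835% (0.386, 0.268 to 0.556), and its share in the section grew from 0.0369% at 75 to 100 µm to 0.206% beyond 500 µm.

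**Figure D5:**
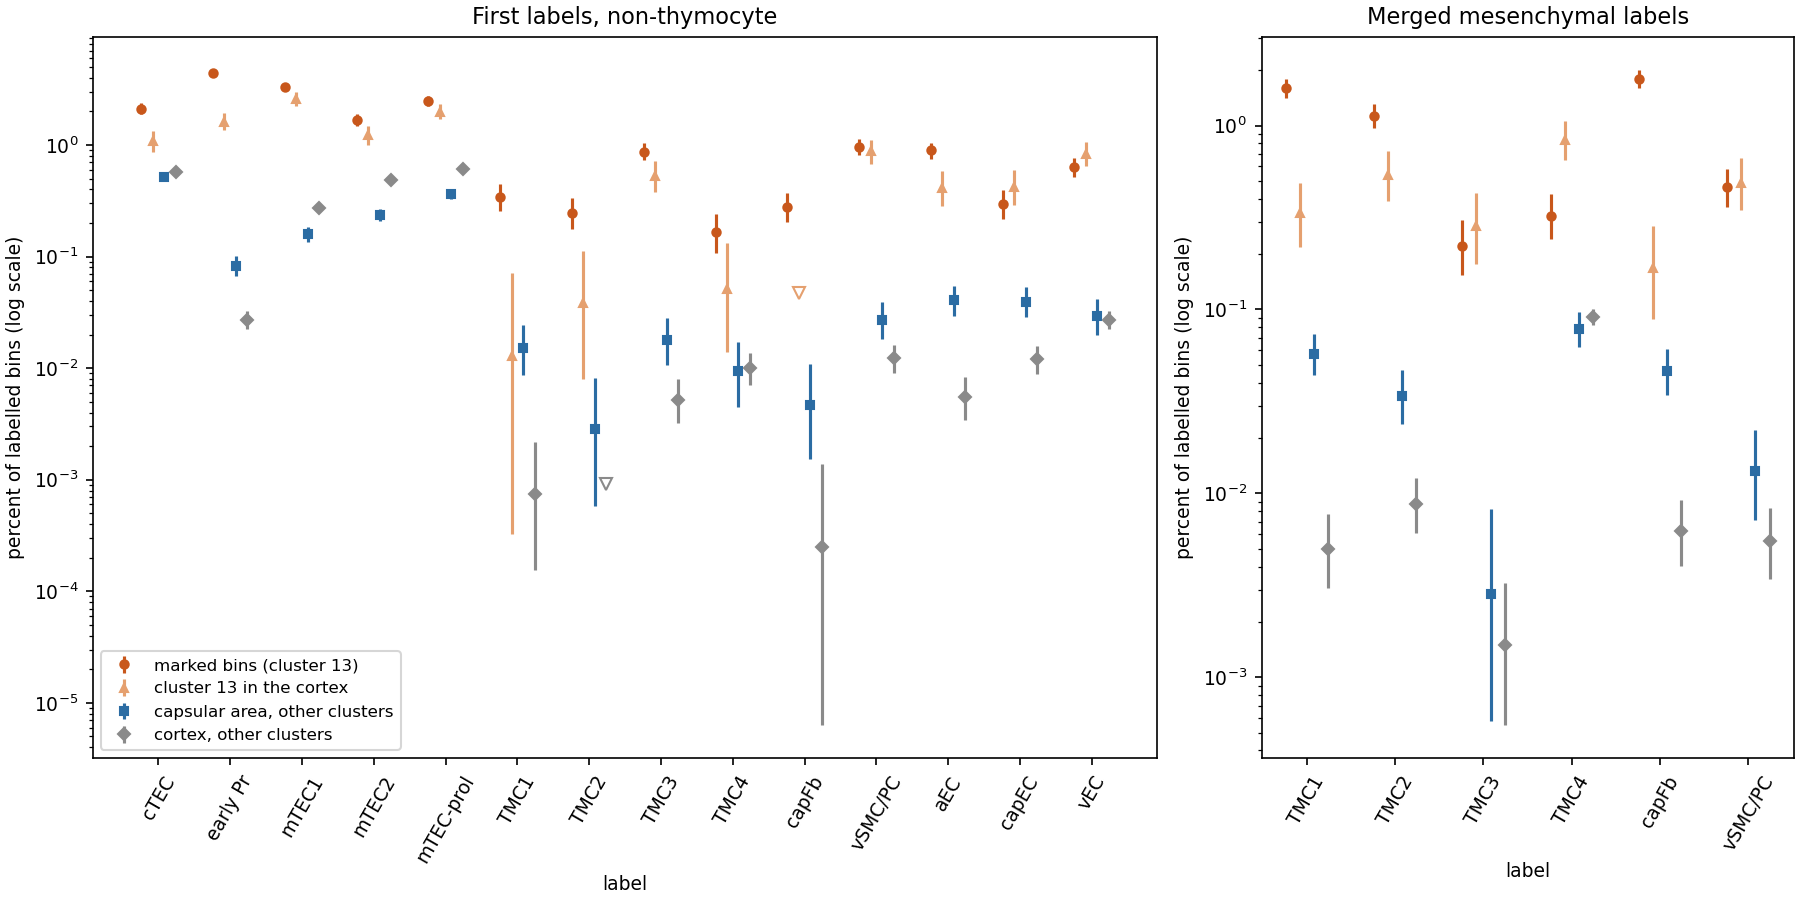
Percent of labelled bins, on a log axis with 95% counting intervals, with each stromal first label (left) and merged label (right), in marked bins, cluster 13 bins of the cortex, and bins of other clusters in the capsular area and the cortex. Open triangles are upper ends of the exact interval where no bin had the label. Merged capFb falls from 1.80% in marked bins to 0.167% in cortex bins of the same cluster, whereas merged vSMC/PC is at 0.462% and 0.488%.

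Merged capFb and TMC1 fell off within a short distance. Merged capFb was at 1.80% in marked bins, 0.196% up to 10 µm away, 0.0286% between 10 and 20 µm and at most 0.0297% in every band beyond. Merged TMC1 went from 1.59% to 0.241%, 0.0524% and 0.0127% over the same distance to 20 to 30 µm. Both labels, whose cells in suspension had the highest Col1a1 (capFb 13156 CPM and TMC1 7465 CPM), a collagen of fibrous tissue, thus had most of their merged bins in the area on or within 10 µm of a marked bin. Marked bins within 50 µm of ground without tissue, the outer ones, and those farther inside had a merged label in 5.60% (4.72 to 6.58) and 5.51% (5.13 to 5.92). Single merged labels differed in both directions: outer over inner, TMC1 was at 1.44 (1.07 to 1.95), capFb at 1.27 (0.948 to 1.70), TMC2 at 0.605 (0.372 to 0.983) and vSMC/PC at 0.398 (0.161 to 0.986). Outer marked bins were shallower, with a median of 258.5 UMIs against 364.

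Vessel labels had fewer bins. Of the endothelial labels, aEC had 188 capsular and 54 cortex bins, a ratio of 11.5 (8.53 to 15.6), and 3.31 (2.24 to 4.89) without marked bins. The label capEC was at 3.81 and 2.16 (1.51 to 3.10), and vEC at 2.54 and 0.721 (0.497 to 1.05). Mural vSMC/PC had 186 and 117 bins, a ratio of 5.27, and 1.14 (0.780 to 1.66) without marked bins. Pecam1, a surface protein of endothelium, was at 996 CPM in aEC and at 1224 CPM in vEC. In cell bins, described below, the ratios without marked ones were 0.491 (0.283 to 0.855) for aEC and 1.154 (0.802 to 1.66) for capEC, so neither excess was stable outside the marked bins. The share of aEC fell off from 0.892% in marked bins to 0.114% up to 10 µm and 0.0170% between 20 and 30 µm.

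Second labels describe what else a bin holds. Without marked bins, 32.7% of capsular and 35.8% of cortex bins had a second label, and 83.0% and 84.9% of those second labels were epithelial. Over the whole area 11 of 31 second labels were higher than in the cortex (35.5%) and 11 were lower (35.5%), and without marked bins 5 were higher (16.1%) and 12 were lower (38.7%). In unmarked bins the label cTEC was second in 41.4% of capsular and 46.3% of cortex bins with a second label (0.895, 0.883 to 0.908). The label early Pr was second in 11.9% and 7.43% (1.60, 1.55 to 1.66). TMC1, TMC2 and capFb were at 4.96, 3.01 and 5.13, and DP-P at 1.80. TMC3 and TMC4, at 1.27 and 1.17, stayed under the fold. Of unmarked bins with DN first and a second label, early Pr was second in 14.3% (13.8 to 14.8) in the capsular area and 8.67% (8.45 to 8.89) in the cortex, and cTEC in 48.3% and 55.7%. For bins with DP first, early Pr was second in 10.4% and 6.02%.

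As a second label, early Pr was found at 19.1% of marked bins, 9.27% of bins up to 10 µm away, 3.74% between 10 and 20 µm and 1.82% between 50 and 75 µm. It then rose to 3.33% beyond 500 µm. The label cTEC as second was at 12.3% in marked bins, 15.2% up to 10 µm away, 12.9% between 10 and 20 µm and 17.3% beyond 500 µm. Marked bins also stood apart in mixing: 7.66% of them were given 1 type only, against 49.8% of bins up to 10 µm away and 74.4% between 40 and 50 µm. Bins of cluster 13 in the cortex were as mixed, 92.2% having a second label against 92.3% of marked bins, so mixing went with the cluster in both areas.

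A confident first label was given to 49.6% of capsular and 47.8% of cortex bins, a ratio of 1.038 (1.031 to 1.044), and to 50.8% of unmarked capsular and 41.0% of marked bins. Confidence differed between labels: 58.3% of DN and 59.3% of DP bins in the capsular area were confident, but 35.8% of epithelial bins there against 58.6% in the cortex. Restricting to confident first labels turned the epithelial ratio to 0.866 (0.816 to 0.919) for the whole area.

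The differences were looked for in 66 squares of 1 mm that held at least 200 labelled bins of each area. Without marked bins, the DN share was higher in the capsular area in 51 squares, and that of DP-P in 51. Mature SP was lower in 56, immature SP in 57 and agonist-selected and regulatory labels in 57. Epithelial labels were lower in 47. The DP share was higher in 29 and lower in 37. Depth moved with these counts, since the capsular median of UMIs was higher in 55 of the 66 squares, and its part in them was not tested beyond the depth classes above. By distance to ground without tissue, the DN share of the whole area was higher than in the cortex in all 6 classes of distance, from a ratio of 1.10 (0.978 to 1.24) within 20 µm, where the interval held 1, to 1.42 (1.34 to 1.51) between 20 and 50 µm. Capsular bins there were deeper too, with medians of 251 and 170 UMIs between 20 and 50 µm.

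Cell bins gave the same directions for thymocytes. They are the authors' segmented areas, each meant to outline a cell, and had lower depth, with medians of 214 UMIs in 112307 labelled capsular and 185 in 387824 labelled cortex cell bins. Their marked bins came from 2 clusters. Without marked ones, the ratio was 1.200 (1.191 to 1.208) for DN, 1.394 (1.349 to 1.440) for DP-P, 0.568 for immature SP and 0.456 (0.436 to 0.477) for mature SP. Epithelial labels were at 0.587 (0.563 to 0.612), early Pr at 1.52 (1.29 to 1.79), and endothelial labels at 0.758 (0.612 to 0.937), opposite in direction to the 1.551 of the 10 µm bins. A label was missing from 23.4% of capsular and 32.1% of cortex cell bins.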

How the data were processed

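Counts of UMIs and genes per 10 µm bin and per segmented cell bin, and UMI counts per gene and barcode of both cell libraries, are whole counts as deposited by the authors. Per the submitters' processing notes, Cell Ranger 8.0.0, Seurat 5.3.0 and the build mRatBN7.2 were used. The weights of the labels are fractions deposited by the authors, from RCTD per the series' design text, with a version not given in the sources used here. Regions, clusters, distances and marked bins were used as deposited, and the 2 deposited gene-list scores and the authors' fit score were not used. Distances use a nominal 0.5 µm per unit, and the deposited distance was matched by one computed from the marked bins.

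Labels were read without their prefix and put in 11 classes. "First label" is the deposited first label, which need not have the largest weight. Shares have Clopper-Pearson and ratios log-normal 95% intervals. A label was past the fold at a ratio of at least 1.5, or its inverse, with an interval excluding 1 and at least 50 bins in both areas together. Depth classes hold equal numbers of bins of the pooled areas. Labels were named if past the fold, in a class described, or among the 3 largest of an area, and genes if in the marker list of a label named. CPM was computed from UMIs summed per type of at least 20 cells. One gene of the mature SP list is not reported here. No doublet caller was run. The regions compared, classes and lists were chosen with earlier results of these data known. The split by marked bins and by cluster, the nearby cortex and the largest-weight label were chosen after seeing the data. The ratio was tested on simulated labels drawn independently of one another. That setting lacks the sharing of tissue and RNA between neighbouring bins, so it checks the computation only. Work was done in Python 3.11.15 with pandas 2.3.3 and SciPy 1.17.1.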

Additional observations from a re-analysis of the deposited data

How the results depend on the processing

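The 8 main results, taken over the whole capsular area, were recomputed under 99 alternatives. Of these values 17 differed from the main one by less than its counting error, 67 moved by more and 15, from 5 results, changed direction. The causes of these changes were not tested, other than that each alternative uses other bins or labels. No paired analysis was possible because each area had 1 sample, and no replicate could be left out for the same reason.

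For DN (1.060) the ratio was 1.047 over confident first labels, 1.052 over bins given 1 type, 1.116 at or above the median depth, 1.204 in cell bins, 1.043 in the left and 1.095 in the right part of the section. It was 0.874 without bins within 50 µm of the other area, 1.094 without marked bins, 1.095 without their cluster and 0.829 for marked bins alone. It was 1.042 with depth classes weighted alike, 1.076 for the label in any place, 1.073 by largest weight and 1.078 among labels of thymocytes only.

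In the same order, the DP ratio (1.012) was 0.998 over confident labels, 1.050 at or above the median depth, 1.067 in cell bins, 1.034 on the left, 0.964 on the right, 1.060 without border bins, 1.040 without marked bins, 1.037 without their cluster and 0.821 for marked bins alone. It was 0.929 against cortex up to 150 µm away, 1.038 at equal depth, 1.049 in any place, 1.037 by largest weight and 1.029 among thymocyte labels.

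The mesenchymal ratio (10.5) was above 1 under each of these alternatives, though 0.714 in cell bins without marked ones: 7.04 over confident labels, 21.4 over bins given 1 type, 7.005 at or above the median depth, 4.38 in cell bins, 7.48 on the left, 16.1 on the right, 28.1 without border bins, 1.97 without marked bins, 3.08 without their cluster and 68.3 for marked bins alone. It was 19.5 against cortex up to 150 µm away, 4.70 in any place, 5.68 by summed weights, 17.03 by largest weight and 6.05 among stromal labels. The merged ratio (5.73) was 4.30 at or above the median depth, 14.9 without border bins, 1.68 without marked bins, 1.96 without their cluster, 33.3 for marked bins alone and 8.04 against nearby cortex. The cell bins have no merged label, so that alternative was not run.

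The epithelial ratio (1.469) was 0.866 over confident labels, 0.851 in cell bins, 0.703 without marked bins, 0.689 without their cluster, 0.996 in any place and 0.848 among stromal labels. It was 2.94 over bins given 1 type, 1.22 at or above the median depth, 1.59 on the left, 1.25 on the right, 3.11 without border bins, 6.68 for marked bins alone, 2.12 against nearby cortex, 1.406 at equal depth, 1.08 by summed weights and 1.72 by largest weight.

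The ratio of confident bins (1.038) was 1.065 at or above the median depth, 1.170 in cell bins, 0.924 without border bins, 1.064 without marked bins, 1.065 without their cluster, 0.857 for marked bins alone, 1.065 against nearby cortex and 1.021 at equal depth. The ratio of median UMIs (1.026) was 1.157 in cell bins, 1.045 on the left, 0.984 on the right, 1.016 without border bins, 1.010 without marked bins, 1.010 without their cluster, 1.134 for marked bins alone and 1.159 against nearby cortex. At 2-fold, 11 labels differed in place of 20.

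Single labels gave 518 further values for 33 results, of which 24, from 9 labels, changed direction. DP-P was at 0.941 without border bins and 0.517 in marked bins, DP-sig at 1.026 without border bins, and AgoSel1 and Treg at 1.042 and 1.040 in marked bins. The label cTEC was at 0.818 over confident labels, 0.964 in cell bins, 0.907 without marked bins, 0.895 without their cluster, 0.824 in any place, 0.848 by summed weights and 0.724 among stromal labels. The label mTEC1 was at 0.693 over confident labels, 0.592 without marked bins and 0.574 without their cluster. The label mTEC2 was at 3.31 over bins given 1 type, 1.063 on the left, 1.72 without border bins, 3.33 in marked bins and 1.66 against nearby cortex. TMC4 was at 0.864 over confident labels, 0.711 in cell bins and 0.943 without the cluster, and vEC at 0.721 without marked bins. All 56 marker gene levels kept their value within counting error in cells of at least 1000 UMIs.

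These data are 1 section, so no spread between animals is known. Rare labels are limited by their number: outside the marked bins capFb was first in 6 capsular bins and 1 cortex bin, and TMC2 in 3 and 3. The regions, the marked bins and the labels are the authors' calls, and the gene counts behind the labels of single bins were not used here.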

Other observations

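Before the capsular area was applied, 184 of its bins had been called medullary by the authors. Of these, 64 (34.8%) had agonist-selected or regulatory labels, 35 (19.0%) mature SP labels, 31 (16.8%) epithelial labels and 8 (4.35%) the DN label.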
